A study of Arabidopsis thaliana with 12 samples.

Results

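Expansins, xyloglucan endotransglucosylase/hydrolases (XTHs) and TRICHOME BIREFRINGENCE-LIKE (TBL) proteins act on the plant cell wall, and their genes were followed in Arabidopsis thaliana roots at 4 °C and 23 °C in the mutant ozs3 (overly zinc sensitive 3) and in the wild type Col-0. Members were selected by name: every gene whose annotated symbol starts with EXPA, EXPB, EXLA, EXLB, XTH or TBL and a number, apart from XTH26, EXPA7 and EXPA18, which mark root hairs. Of 13350 genes with a probe set named for them alone, 46 were members, made up of 16 expansin genes, 8 XTH genes and 22 TBL genes. The expansins comprised 8 α-expansins (EXPA), 4 β-expansins (EXPB), all 3 expansin-like A genes (EXLA) and the 1 expansin-like B gene (EXLB1). Coverage was partial for the others, since the TAIR10.1 gene table lists 21 EXPA, 6 EXPB, 29 XTH and 41 TBL genes beside those left out by name. Some of the rest may be on the array without a name, as 8730 probe sets had no gene.

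Growing plant cells are held by cellulose microfibrils tethered by hemicelluloses, in root primary walls chiefly xyloglucan. Expansins let these polymers slide without cutting them, XTHs cut xyloglucan chains and rejoin or hydrolyse them, and the expansin-like proteins share the fold of expansins but have no established loosening activity. Several of the TBL proteins studied sit in the Golgi and add acetyl groups to xylan, xyloglucan, mannan or pectin before the polymers are exported. Expansins and XTHs thus act on a wall already in place, whereas these TBL proteins modify its polymers during synthesis.

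The groups were ozs3 after 24 h at 4 °C, ozs3 kept at 23 °C, Col-0 after 24 h at 4 °C and Col-0 kept at 23 °C, each with 3 biological replicates and 1 Affymetrix ATH1 array per replicate. All plants were 4 weeks old, were raised hydroponically under days of 8 h light and 16 h dark, and ozs3 has the Col-0 background. The labels do not name the mutated gene of ozs3 or the number of plants in a replicate, so the genotype labels could not be checked by a target transcript. Levels below are log2 intensities as the authors deposited them, averaged as mean ± SD (n = 3 arrays). A cold response is the level at 4 °C minus that at 23 °C, and differences are log2 values ± SE from limma. A gene was called, and is said to have risen or fallen, at a Benjamini-Hochberg adjusted p under 0.05 over all 22746 probe sets.

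Within groups, pairs of arrays had r of 0.994 to 0.997 over the probe sets. COR15A, a cold-induced gene, lay between 11.29 and 11.60 in ozs3 at 4 °C, against 5.23 to 7.60 in ozs3 at 23 °C, and between 10.41 and 10.89 in Col-0 at 4 °C, against 4.64 to 5.25 in Col-0 at 23 °C. Its highest value at 23 °C was in ozs3 replicate 3, so the counts of cold calls in ozs3 and some of the largest ozs3 responses are also given without it. The 3 root hair markers measured, which are the 3 genes left out by name, were above 5 in all 4 groups, and 2 of 3 measured shoot markers were at or below 5 in all of them. The summed linear level of the shoot markers ranged from 146.8 to 167.9 in ozs3 at 4 °C, 153.1 to 173.3 in ozs3 at 23 °C, 125.8 to 155.2 in Col-0 at 4 °C and 163.6 to 262.1 in Col-0 at 23 °C. Listed markers of endodermis, xylem and root tip had no probe set named for them here. A mean of 5 or below was treated as dim, where a difference may be understated. This held over all arrays for 9 members, namely EXPA16, EXPA21, EXPA24, EXPB5, XTH29, TBL15, TBL20, TBL26 and TBL43.

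The first question was how the wall genes responded to cold. The expansins and XTHs stood apart from the TBL genes by how many rose, more clearly in ozs3 than in Col-0. In ozs3, 16 of 24 expansin and XTH genes rose in the cold and 4 fell, whereas 3 of 22 TBL genes rose and 7 fell. Over all 13350 genes 48.6% were called in that comparison, 23.3% higher and 25.3% lower. In Col-0, 11 of the 24 expansin and XTH genes rose and 4 fell, against 6 and 2 of the 22 TBL genes, where 41.0% of all genes were called, 18.1% higher and 22.9% lower. Without dim members the genotypes lay closer: 12 of 19 expansin and XTH genes rose in ozs3 and 4 fell, and 10 rose in Col-0 and 3 fell. Of 18 TBL genes that were not dim, 3 rose and 7 fell in ozs3, and 5 rose and 2 fell in Col-0. The median cold response of the expansin and XTH genes was 0.53 in ozs3 and 0.36 in Col-0, and that of the TBL genes 0.06 in ozs3 and 0.11 in Col-0. Over all genes the medians were 0.05 in ozs3 and −0.01 in Col-0. Subfamilies differed in Col-0, where 2 of 8 EXPA genes rose and 2 fell, and no EXPB gene was called. Their Col-0 medians were 0.09 and −0.03, no higher than that of the TBL genes. The 3 EXLA genes, EXLB1 and 5 of 8 XTH genes rose in Col-0, and 2 XTH genes fell. In ozs3, 6 of the 8 EXPA genes rose and 1 fell, and 2 of the 4 EXPB genes rose and 1 fell.

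Large changes were also more frequent among the expansins and XTHs. In ozs3, 10 of the 24 were called with a change of at least 2-fold, as were 2 of the 22 TBL genes and 10.5% of all genes. In Col-0 these counts were 8 and 2, against 8.13% of all genes. The 4 °C and 23 °C arrays did not overlap for 19 of the 24 expansin and XTH genes and 11 of the 22 TBL genes in ozs3, against 56.4% of all genes, and for 15 and 12 in Col-0, against 49.5%. When ozs3 replicate 3 at 23 °C was left out, 13 expansin and XTH genes rose in ozs3 and 4 fell, and 4 TBL genes rose and 6 fell. The ozs3 cold responses of EXLA1, EXLA3, XTH20 and TBL36 were then 2.68, 3.04, 2.57 and −2.66. The direction of the TBL calls in ozs3 depended on the scaling of the arrays. With 1 common median for all arrays, which moved the median of all genes in ozs3 to 0.18, 7 TBL genes rose and 6 fell, and 66.7% of all calls were higher instead of 48.0%. With the same scaling, 17 expansin and XTH genes rose in ozs3 and 3 fell.

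**Figure D1:**
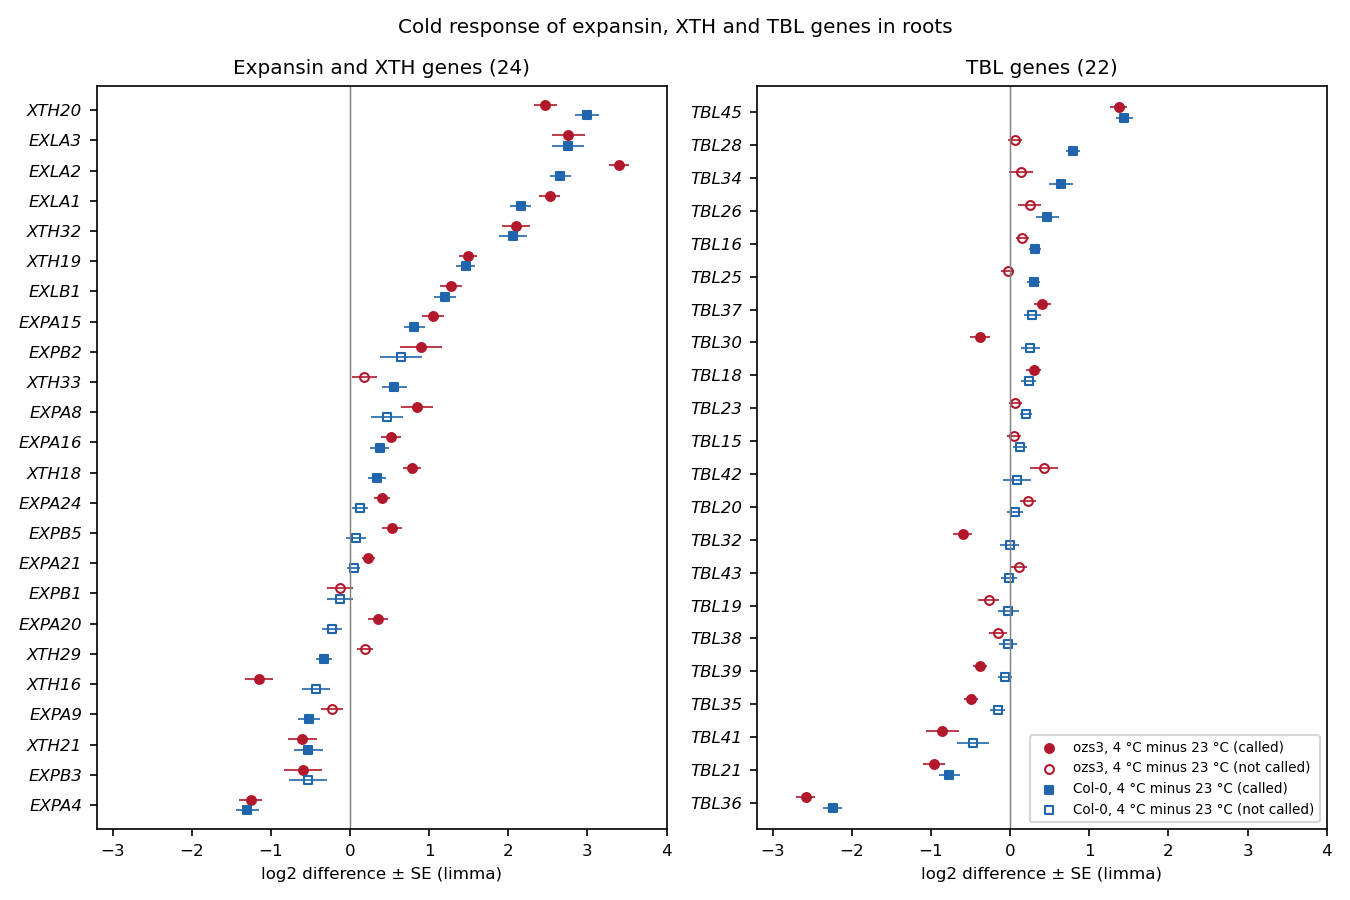
Cold response of each of the 46 genes (log2 difference between 4 °C and 23 °C ± SE from limma), in ozs3 (red circles) and Col-0 (blue squares), for expansin and XTH genes on the left and TBL genes on the right. Filled symbols passed an adjusted p of 0.05. The EXLA genes, XTH20 and XTH32 lie above 2 in both genotypes, while TBL36 lies below −2 in both and most TBL genes lie near 0.

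The 3 EXLA genes responded together and most strongly of the expansins. EXLA2 measured 9.18, 9.01 and 8.81 in ozs3 at 4 °C, against 5.51, 5.48 and 5.81 in ozs3 at 23 °C. In Col-0 it measured 8.15, 8.32 and 7.88 at 4 °C, against 5.51, 5.47 and 5.39 at 23 °C. Cold thus raised it 10.5-fold in ozs3 (3.40 ± 0.13, adjusted p = 1.51e-09) and 6.32-fold in Col-0 (2.66 ± 0.13, adjusted p = 7.59e-09), and the temperatures did not overlap in either genotype.

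EXLA1 and EXLA3 are direct neighbours in the genome (AT3G45970 and AT3G45960). EXLA1 measured 11.12, 11.24 and 11.14 in ozs3 at 4 °C, against 8.36, 8.62 and 8.96 in ozs3 at 23 °C. It measured 10.04, 10.33 and 9.94 in Col-0 at 4 °C, against 7.82, 8.00 and 8.03 in Col-0 at 23 °C. The 4 groups of EXLA1 arrays did not overlap at all, and ran from ozs3 at 4 °C through Col-0 at 4 °C and ozs3 at 23 °C to Col-0 at 23 °C. Its cold response was 2.52 ± 0.14 in ozs3 and 2.16 ± 0.14 in Col-0. EXLA3 measured 10.30, 10.13 and 10.28 in ozs3 at 4 °C, against 7.11, 7.29 and 8.04 in ozs3 at 23 °C. It measured 9.23, 9.33 and 9.46 in Col-0 at 4 °C, against 6.80, 6.20 and 6.77 in Col-0 at 23 °C. The EXLA3 groups followed the same order without overlap, with the widest spread in ozs3 at 23 °C, where replicate 3 was the highest. Its cold response was 2.76 ± 0.20 in ozs3 and 2.75 ± 0.20 in Col-0.

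EXLB1 also rose in both genotypes. It measured 10.04, 10.08 and 10.17 in ozs3 at 4 °C, against 8.62, 8.89 and 8.97 in ozs3 at 23 °C. In Col-0 it measured 10.10, 10.57 and 10.04 at 4 °C, against 8.86, 9.20 and 9.06 at 23 °C. The temperatures were separate in each genotype, with cold responses of 1.27 ± 0.14 in ozs3 and 1.20 ± 0.14 in Col-0 (adjusted p = 4.08e-06 and 8.72e-06), but unlike the EXLA genes it was not called between the genotypes at either temperature.

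Of the 8 XTH genes, XTH18, XTH19, XTH20 and XTH32 rose in both genotypes and XTH21 fell in both. XTH20 measured 12.50, 12.49 and 12.54 in ozs3 at 4 °C, against 10.21, 9.68 and 10.23 in ozs3 at 23 °C. In Col-0 it measured 12.49, 12.52 and 12.79 at 4 °C, against 9.86, 9.58 and 9.37 at 23 °C. It rose 5.54-fold in ozs3 (2.47 ± 0.15, adjusted p = 2.43e-08) and 7.98-fold in Col-0 (3.00 ± 0.15, adjusted p = 9.42e-09), the largest rise of any member in Col-0, and the cold arrays of both genotypes lay between 12.49 and 12.79.

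XTH18 and XTH19 lie next to each other (AT4G30280 and AT4G30290) and, like XTH20, are xyloglucan-modifying enzymes of the root. XTH19 measured 12.17, 12.13 and 12.29 in ozs3 at 4 °C, against 10.92, 10.54 and 10.65 in ozs3 at 23 °C. In Col-0 it measured 11.92, 11.78 and 11.79 at 4 °C, against 10.54, 10.13 and 10.43 at 23 °C. Its cold responses of 1.49 ± 0.12 in ozs3 and 1.46 ± 0.12 in Col-0 were nearly equal, without overlap of the temperatures. XTH18 rose by less, by 0.78 ± 0.11 in ozs3 and by 0.34 ± 0.11 in Col-0 (adjusted p = 4.33e-05 and 0.0214). In Col-0 that call was lost when array 1 of the 4 °C group (adjusted p = 0.0834) or array 2 of the 23 °C group (0.0881) was left out.

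XTH32 belongs to the group of XTHs known for xyloglucan hydrolase activity. It measured 8.63, 8.92 and 8.97 in ozs3 at 4 °C, against 6.98, 6.52 and 6.71 in ozs3 at 23 °C. In Col-0 it measured 8.13, 7.93 and 8.54 at 4 °C, against 6.47, 6.02 and 5.92 at 23 °C. It rose 4.29-fold in ozs3 and 4.18-fold in Col-0, and the temperatures were separate in both. XTH33, which encodes an XTH anchored in the plasma membrane, rose in Col-0 by 0.56 ± 0.16, although replicate 2 at 4 °C lay within the 23 °C range, and leaving out replicate 3 at 4 °C ended that call (adjusted p = 0.0504). In ozs3 it was not called (0.18 ± 0.16).

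Among the XTH members, XTH16 had the largest fall in ozs3. It measured 6.54, 6.34 and 6.31 in ozs3 at 4 °C, against 7.96, 7.48 and 7.19 in ozs3 at 23 °C. In Col-0 it measured 6.93, 6.69 and 6.96 at 4 °C, against 7.62, 7.08 and 7.17 at 23 °C. It fell by 1.15 on the log2 scale in ozs3 (adjusted p = 9.47e-05) and was not called in Col-0 (−0.43 ± 0.18, adjusted p = 0.0675), although 6 of the alternatives called it there, among them the replicate number as a block (0.0119). XTH21, which has been linked to primary root growth, fell in ozs3 (−0.60 ± 0.18) and in Col-0 (−0.52 ± 0.18). The Col-0 value was −0.32 when replicate 2 at 4 °C was left out (adjusted p = 0.156), and leaving out replicate 1 or 3 at 23 °C, or either rescaling, also ended that call, while in ozs3 a repeated quantile normalization ended it (0.0515). XTH29, dim in all groups, fell in Col-0 (−0.32 ± 0.10), a call lost when its replicate 3 at 23 °C was left out (−0.21, adjusted p = 0.0843), and was not called in ozs3 (0.19 ± 0.10).

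The α-expansins moved by less and in both directions. EXPA4 was the expansin that fell furthest, with 9.68, 9.94 and 10.02 in ozs3 at 4 °C, against 11.21, 11.33 and 10.86 in ozs3 at 23 °C. In Col-0 it measured 9.56, 9.95 and 10.07 at 4 °C, against 11.15, 11.07 and 11.25 at 23 °C. Its cold responses were −1.25 ± 0.15 in ozs3 and −1.30 ± 0.15 in Col-0 (adjusted p = 7.55e-06 and 7.03e-06), with no overlap in either genotype. EXPA15 went the other way, with 9.91, 10.15 and 10.07 in ozs3 at 4 °C, against 9.16, 9.12 and 8.71 in ozs3 at 23 °C. In Col-0 it measured 9.67, 9.88 and 10.09 at 4 °C, against 9.23, 9.01 and 8.97 at 23 °C. It rose by 1.05 ± 0.14 in ozs3 and by 0.81 ± 0.14 in Col-0.

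Of the remaining α-expansins, 5 rose in ozs3: EXPA8 by 0.84 ± 0.20, EXPA16 by 0.52 ± 0.12, EXPA24 by 0.41 ± 0.10, EXPA20 by 0.35 ± 0.13 and EXPA21 by 0.23 ± 0.08. Of these EXPA16 also rose in Col-0, by 0.37 ± 0.12, a call lost when replicate 2 was left out at 4 °C (adjusted p = 0.105) or at 23 °C (0.107). Leaving out replicate 1 or 3 at 4 °C, or any 1 of the 3 arrays at 23 °C, ended the EXPA20 call in ozs3 (adjusted p up to 0.108). That of EXPA21, which is dim, ended under 7 alternatives (adjusted p up to 0.281), and its rise was 0.12 with a repeated quantile normalization and 0.36 with 1 common median. EXPA8 was not called in Col-0 (0.47 ± 0.20, adjusted p = 0.0776) but was under 5 alternatives, among them the block (0.0249), both rescalings, and leaving out replicate 3 at 4 °C (0.71, adjusted p = 0.00575). EXPA9 fell in Col-0 (−0.52 ± 0.14) and was not called in ozs3 (−0.23 ± 0.14).

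None of the 4 β-expansins was called in Col-0 in the fit to all arrays, although EXPB2 and EXPB3 were under 5 and 3 of the alternatives. EXPB2 measured 9.10, 9.23 and 8.96 in ozs3 at 4 °C, against 8.70, 8.15 and 7.76 in ozs3 at 23 °C. It rose in ozs3 by 0.89 ± 0.26, and leaving out replicate 3 at 23 °C ended that call (adjusted p = 0.0598). In Col-0 it measured 8.28, 8.44 and 8.13 at 4 °C, against 8.37, 7.25 and 7.30 at 23 °C, so that the groups overlapped through replicate 1 at 23 °C. The difference of 0.64 ± 0.26 did not pass in Col-0 (adjusted p = 0.0658), but was 1.01 when that array was left out (adjusted p = 0.00151) and passed with the block (0.0171). EXPB5, dim in all groups, rose in ozs3 by 0.53 ± 0.13, and EXPB1 was not called in any comparison. EXPB3 fell in ozs3 (−0.60 ± 0.24, adjusted p = 0.0495), with overlapping groups, a call lost under 10 of the alternatives. In Col-0 it was not called (−0.53 ± 0.24, adjusted p = 0.0873), although array weights (0.0198) or leaving out ozs3 replicate 3 at 23 °C (0.0179) called it. Of the ozs3 23 °C arrays, leaving out replicate 1 gave −0.39 (adjusted p = 0.212) and leaving out replicate 3 gave −0.92 (0.00111).

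**Figure D2:**
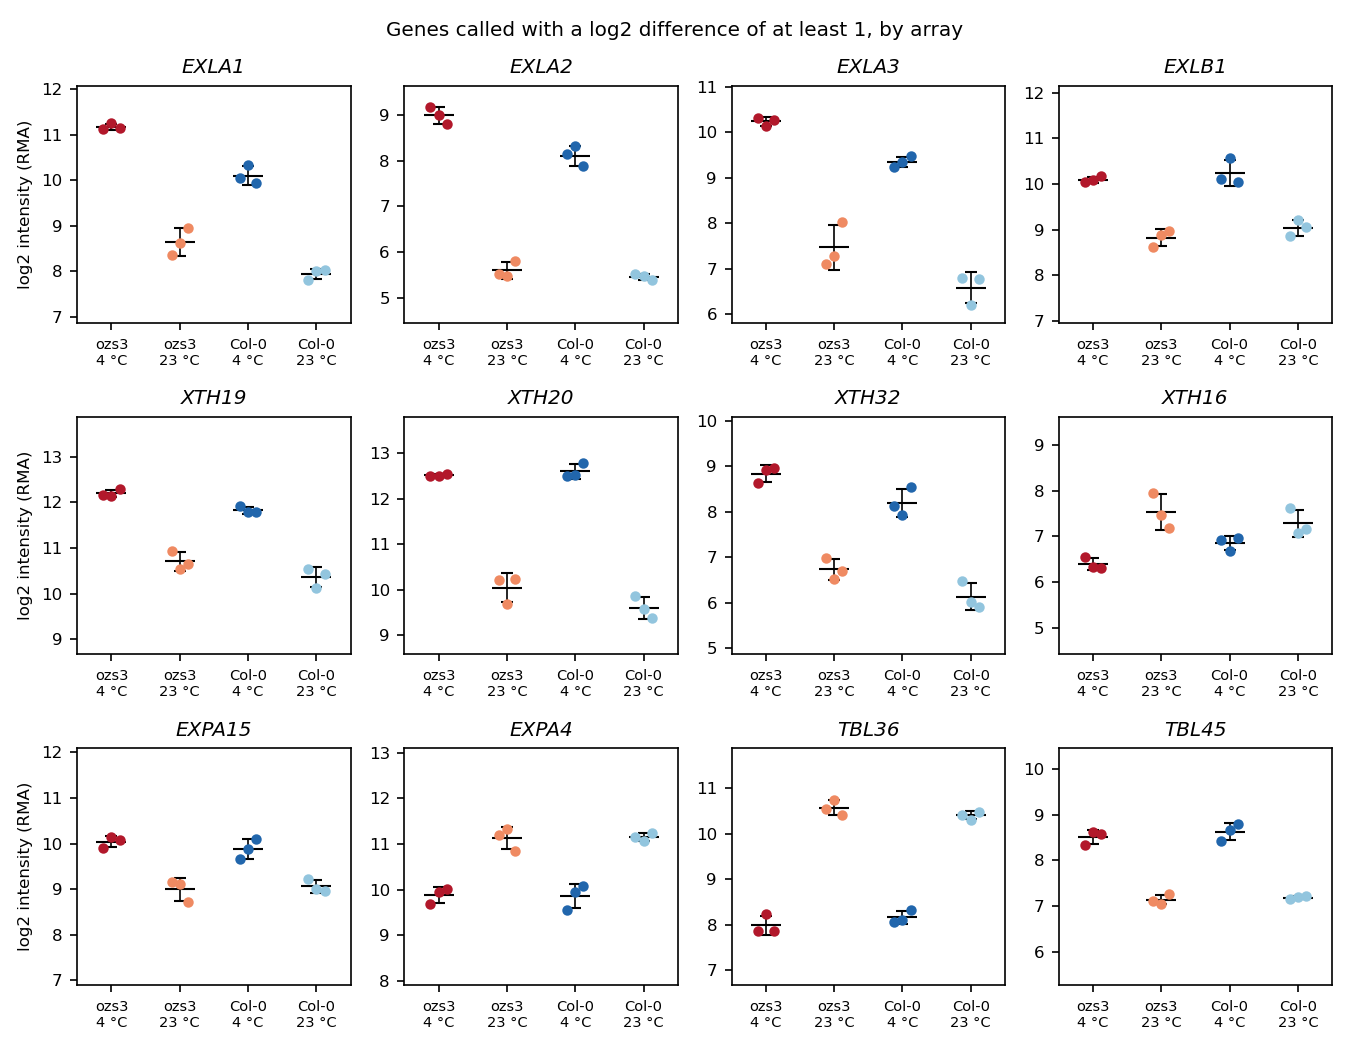
Log2 intensity of the 12 genes called with a log2 difference of at least 1 in any comparison, on each array (points), with the mean and SD of 3 arrays (line and bars), in ozs3 at 4 °C and 23 °C and in Col-0 at 4 °C and 23 °C. Each panel spans the same number of log2 units. The EXLA1 and EXLA3 arrays form 4 separate levels, whereas XTH20, EXPA4, TBL36 and TBL45 separate by temperature with the genotypes close together.

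The TBL genes showed mostly small cold responses with a pair of large ones in opposite directions. TBL36 measured 7.86, 8.23 and 7.85 in ozs3 at 4 °C, against 10.54, 10.74 and 10.41 in ozs3 at 23 °C. In Col-0 it measured 8.05, 8.10 and 8.32 at 4 °C, against 10.42, 10.30 and 10.48 at 23 °C. It fell in ozs3 (−2.58 ± 0.12, adjusted p = 3.17e-09) and in Col-0 (−2.24 ± 0.12, adjusted p = 1.44e-08), the largest fall of any member in both. TBL45 measured 8.35, 8.62 and 8.57 in ozs3 at 4 °C, against 7.11, 7.05 and 7.26 in ozs3 at 23 °C. In Col-0 it measured 8.42, 8.67 and 8.79 at 4 °C, against 7.15, 7.20 and 7.21 at 23 °C. It was the TBL gene that rose most, by 1.37 ± 0.11 in ozs3 and by 1.45 ± 0.11 in Col-0, and both genes had temperatures without overlap and no call between the genotypes.

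TBL21 fell in both genotypes too (−0.96 ± 0.13 in ozs3 and −0.77 ± 0.13 in Col-0). Its direct neighbour TBL19 (AT5G15900, beside AT5G15890) was not called in either genotype (−0.27 ± 0.13 in ozs3 and −0.02 ± 0.13 in Col-0). TBL41 fell in ozs3 (−0.85 ± 0.20) and was not called in Col-0 (−0.47 ± 0.20, adjusted p = 0.0830), although the block (0.0217), array weights (0.0453) and leaving out its replicate 3 at 23 °C (−0.66, adjusted p = 0.0172) called it. TBL37 rose in ozs3 by 0.41 ± 0.11 and TBL18 by 0.30 ± 0.10. In Col-0, TBL37 (0.28 ± 0.11, adjusted p = 0.0520) passed under 8 alternatives, among them the block (0.0251). Leaving out replicate 3 at 4 °C, or replicate 1 or 2 at 23 °C, ended the TBL18 call (adjusted p up to 0.0848).

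The TBL members known from xylan acetylation, TBL28, TBL30, TBL32, TBL34 and TBL35, gave different calls in the genotypes. In Col-0, TBL28 rose by 0.79 ± 0.09 (adjusted p = 7.68e-06) and TBL34 by 0.64 ± 0.15 (adjusted p = 0.00325), whereas TBL30, TBL32 and TBL35 were not called (0.25 ± 0.12, −0.01 ± 0.12 and −0.16 ± 0.09). In ozs3, TBL30, TBL32 and TBL35 fell (−0.38 ± 0.12, −0.60 ± 0.12 and −0.50 ± 0.09), whereas TBL28 and TBL34 were not called (0.06 ± 0.09 and 0.13 ± 0.15). The signed cold response of all 5 was lower in ozs3 than in Col-0. This was not particular to them, since of all 22 TBL genes 5 had a larger response in ozs3. For 3 of the xylan-linked genes, TBL28, TBL30 and TBL32, the difference passed its own test, given below with the interaction. The probe set of TBL32 is of a type that can match transcripts of related genes. The TBL30 call in ozs3 was lost under both rescalings and when replicate 1 at 4 °C or replicate 1 or 3 at 23 °C was left out, with −0.25 for 1 common median (adjusted p = 0.112).

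TBL25 and TBL26, which are among the members linked to mannan, rose in Col-0 by 0.30 ± 0.08 and 0.47 ± 0.15. Neither was called in ozs3 (−0.03 ± 0.08 and 0.25 ± 0.15). Leaving out replicate 3 at 4 °C (adjusted p = 0.0658) or replicate 2 at 23 °C (0.0628) ended the TBL26 call. TBL16 rose in Col-0 by 0.32 ± 0.08, and TBL39 fell in ozs3 (−0.38 ± 0.09, or −0.25 with 1 common median). TBL15, TBL19, TBL20, TBL23, TBL38, TBL42 and TBL43, together with EXPB1, were the 8 members called in no comparison, with cold responses between −0.27 and 0.43 in ozs3. Some alternatives did call TBL19, TBL20, TBL23 and TBL42, with TBL42 at 0.68 in ozs3 when replicate 2 at 4 °C was left out (adjusted p = 5.17e-04), and TBL23 passing in Col-0 with the block (0.20, adjusted p = 0.0474) and 3 other alternatives.

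Set side by side in both genotypes, 10 of the 24 expansin and XTH genes rose in both, 2 fell in both, 8 were called in ozs3 alone and 3 in Col-0 alone, so that 12 of 20 calls in ozs3 and 12 of 15 in Col-0 were shared. Of the 22 TBL genes, 1 rose in both, 2 fell in both, 7 were called in ozs3 alone and 5 in Col-0 alone, with 3 of 10 calls in ozs3 and 3 of 8 in Col-0 shared. Over all genes 63.3% of the calls in ozs3 and 74.9% of those in Col-0 were shared in direction. The expansin and XTH shares of 60.0% and 80.0% lay near that background, and the TBL shares were 30.0% and 37.5%. Without dim members, 5 of 19 expansin and XTH genes were called in ozs3 alone and 2 in Col-0 alone. Of 18 TBL genes that were not dim, 7 were called in ozs3 alone and 4 in Col-0 alone. No member was called in opposite directions, as 87 of 13350 genes were. The 2 cold responses share no arrays, whereas the genotype comparisons below reuse the arrays of the cold responses. Across genes they correlated at r = 0.960 for the 24 expansin and XTH genes and r = 0.928 for the 22 TBL genes, and at r = 0.722 for the TBL genes without TBL36 and TBL45, against r = 0.836 for all genes, as a description only, since genes of the same arrays are not independent.

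The 2 families also differed in the group where they were highest. Of the 24 expansin and XTH genes, 14 had their highest mean in ozs3 at 4 °C, 5 in ozs3 at 23 °C, 3 in Col-0 at 4 °C and 2 in Col-0 at 23 °C. Of the 22 TBL genes, 4 had theirs in ozs3 at 4 °C, 7 in ozs3 at 23 °C, 10 in Col-0 at 4 °C and 1 in Col-0 at 23 °C. Among all genes 35.9% were highest in ozs3 at 4 °C and 18.9% in Col-0 at 4 °C. At 23 °C the shares of all genes were 21.2% in ozs3 and 24.0% in Col-0. Of the 16 expansins 11 (68.8%) were highest in ozs3 at 4 °C. Of the 8 XTH genes 3 (37.5%) were, near the share of all genes. The 11 expansins include the dim genes EXPA16, EXPA21, EXPA24 and EXPB5, whose highest and lowest group means lay only 0.23 to 0.53 apart.

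For each array, the median over the family of each gene's deviation from its mean over all 12 arrays gave a family level. The expansin and XTH level was 0.31 ± 0.02 in ozs3 at 4 °C and −0.21 ± 0.07 in ozs3 at 23 °C, and 0.02 ± 0.04 in Col-0 at 4 °C and −0.24 ± 0.15 in Col-0 at 23 °C (SD, n = 3). The TBL level was −0.04 ± 0.03 in ozs3 at 4 °C and −0.01 ± 0.08 in ozs3 at 23 °C, and 0.07 ± 0.05 in Col-0 at 4 °C and −0.06 ± 0.04 in Col-0 at 23 °C. The expansin and XTH level in ozs3 at 4 °C was thus above every other array, while the TBL levels of the 2 ozs3 groups overlapped.

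The expansin and XTH level minus the TBL level was 0.31, 0.36 and 0.36 in ozs3 at 4 °C, against −0.19, −0.16 and −0.24 in ozs3 at 23 °C. It was −0.11, 0.05 and −0.09 in Col-0 at 4 °C, against −0.07, −0.30 and −0.16 in Col-0 at 23 °C. The groups were separate in ozs3 and overlapped in Col-0. The median cold response of the expansin and XTH genes exceeded that of the TBL genes by 0.47 in ozs3 and by 0.25 in Col-0. The gap in Col-0 was 0.08 when replicate 2 at 4 °C was left out, and without dim probe sets the gaps were 0.93 in ozs3 and 0.42 in Col-0. These family levels carry no test.

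**Figure D3:**
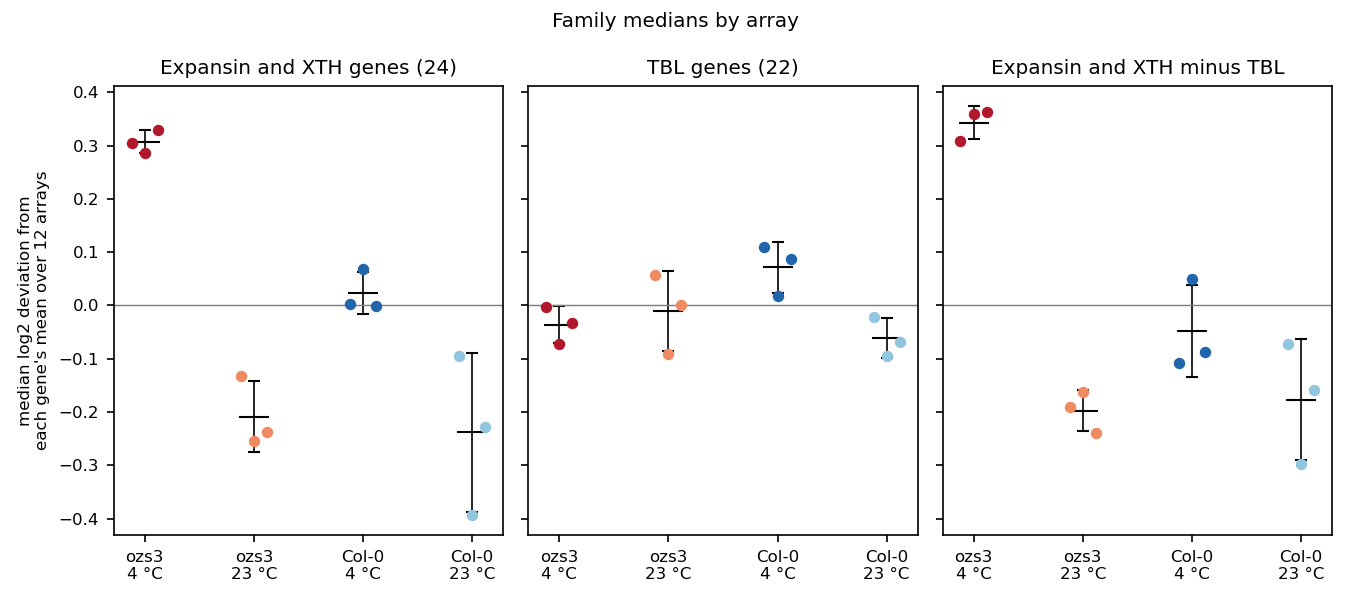
Family level on each array (points) with the mean and SD of 3 arrays: the median over genes of the log2 deviation from each gene's mean over 12 arrays, for the 24 expansin and XTH genes, the 22 TBL genes, and the first minus the second. The expansin and XTH level is highest on the 3 arrays of ozs3 at 4 °C, at 0.29 to 0.33, where the TBL level lies at or below 0.

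The next question was where ozs3 and Col-0 differed at the same temperature. At 4 °C, 5 of 24 expansin and XTH genes were called higher in ozs3 and none lower, and 4 of 22 TBL genes were called lower and none higher. Over all genes 13.4% were called, 6.03% higher and 7.39% lower. EXLA1 was the 1 member called with a change of at least 2-fold, as were 0.584% of all genes. The genotypes did not overlap for 13 of the 24 expansin and XTH genes and 4 of the 22 TBL genes, against 29.2% of all genes. EXLA1, EXLA2 and EXLA3 were higher in ozs3 at 4 °C by 1.07 ± 0.14, 0.88 ± 0.13 and 0.89 ± 0.20 (adjusted p = 2.71e-04, 6.02e-04 and 0.0104), as was XTH18 by 0.51 ± 0.11 (0.00755). XTH32 was higher by 0.64 ± 0.18, a call lost when 4 °C replicate 2 or 3 of ozs3, or 1 or 2 of Col-0, was left out (adjusted p between 0.0783 and 0.111). TBL28 and TBL32 were lower in ozs3 at 4 °C by −0.41 ± 0.09 and −0.50 ± 0.12, with no overlap between the groups. Leaving out replicate 3 of Col-0 at 4 °C ended the TBL32 call (adjusted p = 0.0586). TBL25 (−0.31 ± 0.08, adjusted p = 0.0217) and TBL30 (−0.39 ± 0.12, adjusted p = 0.0472) were lost under 5 and 14 of the alternatives, among them 1 common median (0.0662 and 0.0969). TBL30 stood at −0.26 when that same Col-0 array was left out, as TBL25 was lost with it too.

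With the replicate number as a block, 10 expansin and XTH genes were called at 4 °C, 9 higher and 1 lower in ozs3. The added ones were EXPA9 (0.40), EXPB2 (0.81), XTH19 (0.37), XTH21 (0.51) and XTH16 (−0.46), with adjusted p between 0.0128 and 0.0335. The count was 10 with 1 common median as well, all higher, and 9 when the 23 °C array 1 of ozs3 or 2 of Col-0 was left out, although neither is in the comparison. The TBL count at 4 °C was 2 with 1 common median or with only the arrays compared, and 1 when replicate 3 of Col-0 at 4 °C was left out.

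At 23 °C few members differed. Of the 24 expansin and XTH genes 2 were called higher in ozs3 and 1 lower, and of the 22 TBL genes 2 were called higher, where 5.93% of all genes were called, 2.93% higher and 3.00% lower. No member was called with a change of at least 2-fold, as 0.801% of all genes were. The genotypes did not overlap at 23 °C for 7 and 5 members, against 25.1% of all genes. EXLA1 was higher in ozs3 by 0.70 ± 0.14 (adjusted p = 0.00826) and EXLA3 by 0.89 ± 0.20 (0.0206). Leaving out the 23 °C replicate 3 of ozs3 gave 0.61 for EXLA3 (adjusted p = 0.0428), and leaving out replicate 2 of Col-0 ended the call (0.69, adjusted p = 0.0903). EXLA2 did not share this difference (0.15 ± 0.13), and its 23 °C arrays overlapped between the genotypes. Its 23 °C means of 5.60 in ozs3 and 5.46 in Col-0 lay near the dim limit of 5, so a difference there may be understated. TBL35 measured 8.04, 8.33 and 8.09 in ozs3 at 23 °C, against 7.82, 7.69 and 7.82 in Col-0 at 23 °C (0.38 ± 0.09, adjusted p = 0.0246). TBL39 measured 10.48, 10.42 and 10.29 in ozs3 at 23 °C, against 10.08, 10.07 and 9.96 in Col-0 at 23 °C (0.36 ± 0.09, adjusted p = 0.0303). Neither gene overlapped between the genotypes at 23 °C.

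Among the 23 °C arrays, leaving out replicate 1 or 2 of ozs3, or any of Col-0, ended the TBL39 call (adjusted p up to 0.127), and leaving out replicate 2 of ozs3, or 2 or 3 of Col-0, ended that of TBL35 (up to 0.112). The TBL count was accordingly 1 when replicate 1 of either genotype was left out, and 0 when replicate 2 of either or replicate 3 of Col-0 was. XTH29, which is dim, was lower by −0.37 ± 0.10 (adjusted p = 0.0429), a call lost under 11 of the alternatives, among them a repeated quantile normalization, where 2 expansin and XTH genes were higher and none lower. With the block, 6 expansin and XTH genes and 4 TBL genes were called at 23 °C. These added XTH19 (0.34), XTH21 (0.58), XTH32 (0.60), TBL28 (0.32) and TBL34 (0.37), all higher in ozs3, with adjusted p between 0.0237 and 0.0394.

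The interaction asked which members responded to cold differently in ozs3 and in Col-0, and 9.43% of all genes passed it, 3.97% with a higher and 5.46% with a lower response in ozs3. Changes of at least 2-fold were called for no member and for 1.63% of all genes. Of the expansin and XTH genes 2 of 24 passed, both with a higher response in ozs3, and of the TBL genes 3 of 22, all with a lower response in ozs3. EXLA2 responded more in ozs3 by 0.74 ± 0.18 (adjusted p = 0.0218), and leaving out the 23 °C replicate 1 or 2 of ozs3 ended the call (0.0559 and 0.0578). The 23 °C means of EXLA2 lay near the dim limit in both genotypes (5.60 in ozs3 and 5.46 in Col-0), and what this added to its interaction was not tested. TBL28 measured 7.44, 7.36 and 7.32 in ozs3 at 4 °C, against 7.46, 7.25 and 7.22 in ozs3 at 23 °C. In Col-0 it measured 7.86, 7.64 and 7.84 at 4 °C, against 7.04, 7.01 and 6.92 at 23 °C. The temperatures overlapped in ozs3 and not in Col-0, with an interaction of −0.73 ± 0.13 (adjusted p = 0.00398), which was called under every alternative run.

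TBL30, the direct neighbour of TBL28 (AT2G40160 beside AT2G40150), and TBL32 had interactions of −0.63 ± 0.17 and −0.59 ± 0.17 (adjusted p = 0.0350 and 0.0424). TBL30 measured 7.05, 7.28 and 7.38 in ozs3 at 4 °C, against 7.67, 7.46 and 7.72 in ozs3 at 23 °C, and 7.47, 7.52 and 7.89 in Col-0 at 4 °C, against 7.45, 7.37 and 7.30 in Col-0 at 23 °C. TBL32 measured 7.15, 7.21 and 7.40 in ozs3 at 4 °C, against 7.87, 7.79 and 7.91 in ozs3 at 23 °C, and 7.57, 7.67 and 8.01 in Col-0 at 4 °C, against 7.75, 7.59 and 7.93 in Col-0 at 23 °C. Both were thus lowest in ozs3 at 4 °C. These 2 calls were lost under 10 and 12 of the alternatives (adjusted p up to 0.0803 and 0.0920), among them 1 common median and a repeated quantile normalization. XTH29, which is dim, had an interaction of 0.51 ± 0.14 (adjusted p = 0.0354), lost under 10 alternatives. Leaving out 1 array gave 0 to 3 expansin and XTH calls, the 0 without the 23 °C replicate 1 of ozs3, and 1 to 4 TBL calls. With the replicate block EXPA20 (0.58), XTH16 (−0.72) and TBL34 (−0.51) passed as well, with adjusted p = 0.0321, 0.0171 and 0.0206.

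The direction of the interaction differed between the families beyond the genes called. The cold response was larger in ozs3, as a signed value, for 19 of 24 expansin and XTH genes and for 5 of 22 TBL genes, against 56.6% of all genes. With a repeated quantile normalization the counts were 16 and 5, against 51.1% of all genes, with 1 common median 21 and 7, against 67.1%, and without dim probe sets 14 of 19 and 3 of 18, against 47.9%. The median interaction was 0.16 for the expansin and XTH genes and −0.21 for the TBL genes, against 0.04 for all genes. Without dim members it was 0.04 for 19 expansin and XTH genes, the same as over all genes with dim ones included, and −0.28 for 18 TBL genes. Among the expansin and XTH genes, the 16 expansins had a median interaction of 0.24 and the 8 XTH genes one of −0.02, with XTH16, XTH20 and XTH33 below −0.3 and EXPB3 the single expansin below 0. These directions carry no test of their own.

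**Figure D4:**
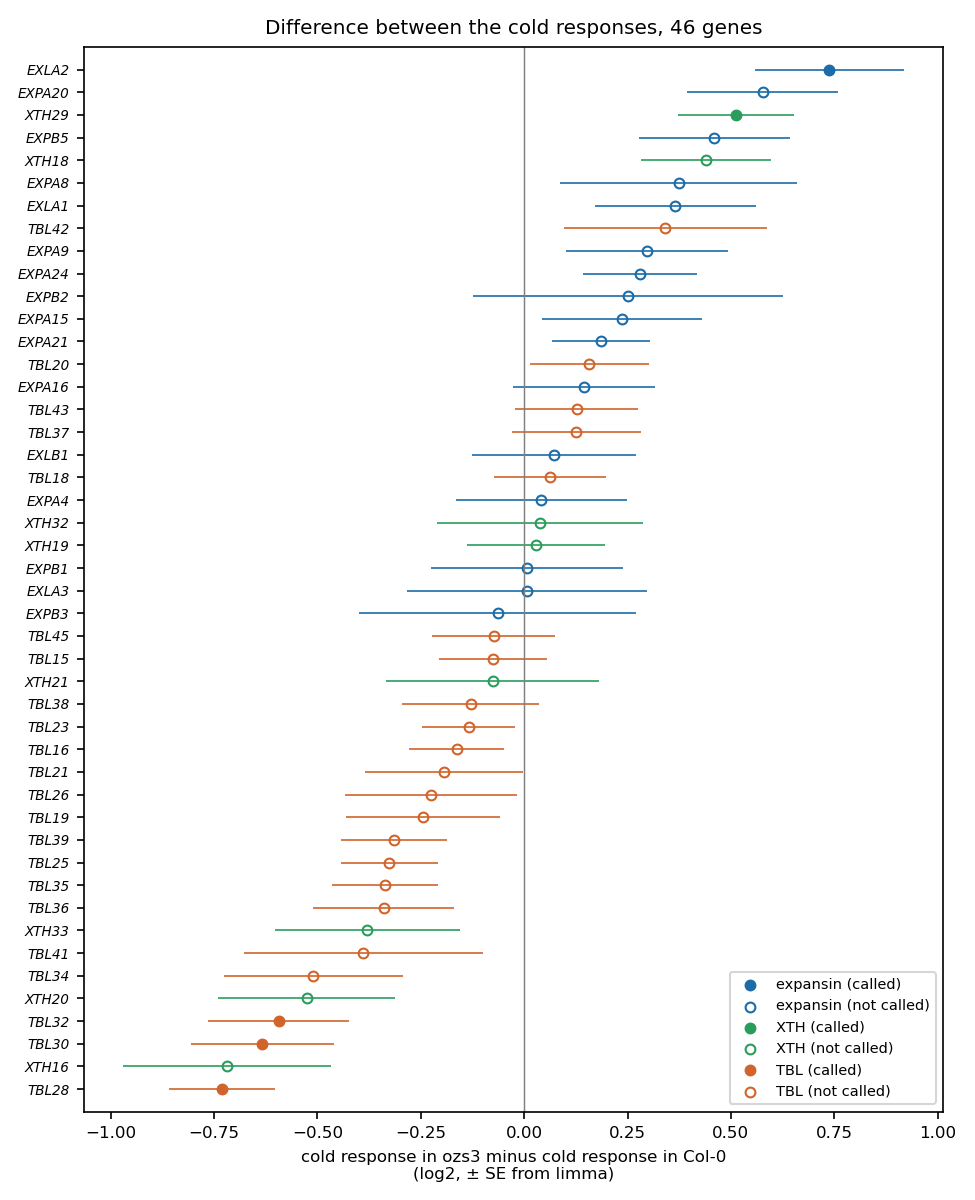
Cold response in ozs3 minus cold response in Col-0 for each of the 46 genes (log2 ± SE from limma), coloured by family and filled where the adjusted p passed 0.05. The upper end holds mostly expansins and the lower end mostly TBL genes, with TBL28 lowest at −0.73 and EXLA2 highest at 0.74.

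Other genes of wall synthesis and growth were examined from fixed lists, of which few members had a probe set named for them alone. As 8730 of 22746 probe sets had no gene name, a gene counted here as not measured may still be on the array. Of 16 listed genes of xyloglucan synthesis and trimming 5 were measured, all of the CSLC family that makes the xyloglucan backbone. In ozs3, 4 of them rose and 1 fell, and in Col-0, 4 rose. CSLC04 rose 3.24-fold in ozs3 (1.70 ± 0.09) and 2.19-fold in Col-0 (1.13 ± 0.09), and its response was larger in ozs3 by 0.57 ± 0.13 (adjusted p = 0.0137). Of 13 xylan synthesis genes 4 were measured, none called in ozs3 and 1 higher in Col-0, IRX15-L (0.53 ± 0.12). It was not called in ozs3 (−0.01 ± 0.12), and the interaction did not pass (−0.54 ± 0.17, adjusted p = 0.0560).

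Of 9 listed acetylation genes outside the TBL symbols 2 were measured. AT5G06700, the locus of TBR after which the TBL family is named, rose by 0.93 ± 0.08 in ozs3 and by 0.86 ± 0.08 in Col-0, and the other was not called in either. COB, needed for oriented cellulose deposition and the 1 of 16 cellulose genes measured, rose 2.14-fold in ozs3 (adjusted p = 2.78e-07) and 2.12-fold in Col-0 (adjusted p = 4.31e-07). The wall-sensing receptor kinase genes FER and THE1, the 2 measured of 7 in their list, rose in ozs3 by 0.55 ± 0.08 and 0.56 ± 0.10 and in Col-0 by 0.38 ± 0.08 and 0.37 ± 0.10.

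Among hormone genes, 4 of 12 auxin response genes were measured, of which 3 rose in ozs3 and 1 in Col-0. LBD16, a regulator of lateral root formation, rose by 1.09 ± 0.12 in ozs3 and by 0.40 ± 0.12 in Col-0, and LBD29, of the same family, rose by 0.81 ± 0.16 in ozs3 and was not called in Col-0 (−0.21 ± 0.16). Both had a larger response in ozs3 (0.69 ± 0.17 and 1.02 ± 0.23, adjusted p = 0.0208 and 0.0143). The gibberellin receptor gene GID1A, the 1 of 10 gibberellin genes measured, fell in ozs3 (−0.52 ± 0.14) and in Col-0 (−0.79 ± 0.14). None of the 14 listed brassinosteroid genes was measured under a name here. The root hair markers moved with the cold as well: XTH26 fell in ozs3 (−1.83 ± 0.26) and in Col-0 (−0.81 ± 0.26), as did EXPA18 (−0.65 ± 0.16 and −0.92 ± 0.16), and EXPA7 was not called in either. At 4 °C XTH26 was lower in ozs3 than in Col-0 (−1.28 ± 0.26, adjusted p = 0.0052). Their summed linear level ranged from 975.4 to 1368 in ozs3 at 4 °C, against 1212 to 1774 in ozs3 at 23 °C, and from 858.0 to 1282 in Col-0 at 4 °C, against 1451 to 1788 in Col-0 at 23 °C. In whole roots fewer cells of a type and less RNA per cell cannot be told apart, and the part of root hairs in the results above was not tested.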

How the data were processed

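RNA from whole roots of 12 samples was hybridised to ATH1 arrays as biotin-labelled cRNA made from 100 ng of total RNA. The deposited values are log2 intensities, 1 per probe set and array, which the authors made with RMA per the submitters' processing notes. No version of RMA is given, and the log2 scale was read from the values (2.91 to 15.0). Of 22810 probe sets, 64 controls were left out. Genes were named from the platform annotation, where 13513 probe sets had 1 gene, 503 several and 8730 none, and the brightest probe set stood for a gene. Each member had 1 such probe set.

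In R 4.3.3, limma 3.58.1 (lmFit, contrasts.fit, eBayes) fitted 1 mean per group over the 12 arrays, with 5 contrasts adjusted by Benjamini-Hochberg over 22746 probe sets, after the code was tested on simulated data. Values per array are given for members called with a log2 difference of at least 1 and, chosen after their values were seen, for EXPB2, TBL28, TBL30, TBL32, TBL35 and TBL39. All members could be named, and of each list of other genes up to 3 called ones with the smallest adjusted p. The lists were cellulose, xyloglucan and xylan synthesis, acetylation, wall sensing, brassinosteroid, auxin and gibberellin genes, and markers of root hair, shoot, endodermis, xylem and root tip. The members and lists were chosen with earlier results of these data known. Arrays sharing a replicate number deviated together, with r above 0.1 in every pair for the cold response in Col-0 (0.195 to 0.273), at 4 °C (0.198 to 0.353) and at 23 °C (0.294 to 0.473), but not in ozs3 (0.0809 to 0.320), so blocked values stand beside results they change. Alternatives were the replicate block, 2 rescalings, a dim filter, an intensity trend, array weights, fewer arrays and each array left out. Arrays give no read depth, and their number limits the precision. No labelled technical batch was found. Sequences of the members were not used here.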

Additional observations from a re-analysis of the deposited data

Results flagged for a closer look

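A cold response that differed between ozs3 and Col-0 by limma's interaction test was found for EXLA2 (0.74, adjusted p = 0.0218), XTH29 (0.51, adjusted p = 0.0354), TBL28 (−0.73, adjusted p = 0.00398), TBL30 (−0.63, adjusted p = 0.0350) and TBL32 (−0.59, adjusted p = 0.0424). These were 10.9% of the 46 members, near the 9.43% of all genes that passed. Only the TBL28 call held under every alternative, and the other calls were each lost under some. XTH29 was dim in all 4 groups. The neighbours TBL28 and TBL30 both passed, with TBL28 rising in Col-0 and TBL30 falling in ozs3.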

How the results depend on the processing

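All cold calls of the EXLA genes, EXLB1, EXPA4, EXPA15, XTH19, XTH20, XTH32, TBL21, TBL36 and TBL45 held under every alternative in both genotypes. Of the called member results, 23 of 30 for cold in ozs3, 17 of 23 for cold in Col-0, 5 of 9 at 4 °C, 1 of 5 at 23 °C and 1 of 5 interactions held throughout, and none reversed. Of results not called, 6, 9, 9, 7 and 7 in these comparisons were called under at least 1 alternative. Leaving out arrays gave 17 to 20 expansin and XTH genes and 8 to 12 TBL genes called for cold in ozs3, and 13 to 18 and 7 to 9 for cold in Col-0.

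At 4 °C the expansin and XTH count was 10 with the replicate block, 10 with 1 common median and 9 with only the arrays compared (4 to 9 with an array left out), and the TBL count was 2 with 1 common median and 2 with only the arrays compared (1 to 4). At 23 °C the counts were 6 and 4 with the block and 1 and 1 with only the arrays compared (2 to 4 and 0 to 3). For the interaction the expansin and XTH count was 4 with the block and 1 without dim probe sets (0 to 3), and the TBL count 1 with array weights or either rescaling (1 to 4). The replicate block ended none of the member calls, and for cold in ozs3, where the numbers did not pair every set of arrays, it added TBL19 (−0.27, adjusted p = 0.0468) and TBL42 (0.43, adjusted p = 0.0418).

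The expansin and XTH median minus the TBL median was, without dim probe sets, 0.93 for cold in ozs3, 0.42 for cold in Col-0, 0.45 at 4 °C and 0.19 at 23 °C. With an array left out it ran from 0.41 to 0.53 in ozs3, 0.0814 to 0.30 in Col-0, 0.23 to 0.43 at 4 °C, −0.0183 to 0.13 at 23 °C and 0.27 to 0.53 for the interaction. The value at 23 °C (0.06) changed sign to −0.0183 when its ozs3 replicate 1 was left out. The causes were not tested. No member had another single-gene probe set, so the dimmer probe set was not run. Dim members limit what their differences show.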
